A study of Mus musculus with 4 samples.

Results

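The genes described here are Clec7a, 8 related C-type lectin receptor genes of myeloid cells (Clec4n, Clec4d, Clec4e, Clec4a1, Clec4a2, Clec4a3, Clec12a and Clec5a) and Card9, which encodes an adaptor protein that acts behind several of these receptors. They are 10 of the 49993 genes in the count tables, found by gene symbol, and each of the 10 was in every table. The list was selected on measured values as well as on gene family, because the difference of Clec7a between the groups was known when it was drawn up. Differences between the groups are therefore given for these genes as descriptions, with their errors, and no test of them is used as support.

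C-type lectin receptors are membrane proteins of myeloid cells that bind sugars, lipids or proteins on microbes and on damaged cells. Dectin-1, the product of Clec7a, carries a single tyrosine activation motif in its own tail and recruits the kinase Syk. Dectin-2 (Clec4n), MCL (Clec4d) and Mincle (Clec4e) have no such motif and signal through the Fc receptor gamma chain encoded by Fcer1g, whereas MDL-1 (Clec5a) pairs with DAP12, the product of Tyrobp. Syk signals onward to NF-kB through a complex of Card9, Bcl10 and Malt1. Clec12a and Clec4a2 (DCIR1) carry inhibitory tyrosine motifs that recruit phosphatases, and Clec4a3 and Clec4a1 encode further proteins of the DCIR group. In the brain, Clec7a is widely used as a marker of microglia gathered at amyloid plaques.

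RNA was sequenced from CD11b+ cells taken by magnetic sorting from the brains of 10-month-old mice, and the submitters call these cells microglia. All the mice carried APP/PS1, transgenes that produce amyloid. The genotypes were APP/PS1+ asrij+/+ (AD, n = 2 libraries) and APP/PS1+ asrij-/- (AD/KO, n = 2 libraries), the asrij deletion being constitutive and thus not limited to microglia. CD11b is present on neutrophils, monocytes and macrophages as well as on microglia. The labels do not say how many animals each library holds, so that p-values measure only the spread between these libraries, which may be technical.

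The libraries held 13102622 to 19810076 counts. Ociad1, the gene for Asrij, had 691 and 1032 counts in AD and 746 and 592 in AD/KO, or 50.2 and 63.4 CPM (counts scaled to library size, with TMM factors) in AD and 38.9 and 32.1 CPM in AD/KO (log2 fold change −0.68, SE 0.29). Both AD/KO values were below the AD values, yet the transcript was still counted in the libraries labelled AD/KO. Both group names follow the labels. All 14 homeostatic microglia markers were detected, with a summed level of 21298 and 14398 CPM in the AD replicates 1 and 2, and 21321 and 6186 CPM in those of AD/KO. The 14 genes were each lowest in AD/KO replicate 2. Neuron markers had summed levels of 732 and 2594 CPM in AD and 2825 and 7814 CPM in AD/KO. Astrocyte markers were at 1961 and 4665 CPM in AD and 4871 and 12421 CPM in AD/KO. Oligodendrocyte markers were at 1660 and 2671 CPM in AD and 3949 and 8613 CPM in AD/KO. These sums were thus higher in both AD/KO libraries, and highest in AD/KO replicate 2. Both AD/KO values were above both AD values in 3 of 12 neuron, 9 of 10 astrocyte and 4 of 10 oligodendrocyte markers (20.3% of all genes). Of 16 neutrophil markers, 15 were highest in AD replicate 2, and the summed level was 5823 CPM there against 881 to 1411 CPM elsewhere. Csf3r, the exception, had 996 of the 1411 CPM in AD replicate 1 and 629 CPM in AD replicate 2. In bulk samples, fewer cells of a type and less RNA per cell cannot be told apart.

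Clec7a (gene ID 56644) lies on the minus strand of chromosome 6, 129461591 to 129472785, on GRCm38. It had 1081 and 1387 counts in the AD libraries and 194 and 182 counts in the AD/KO libraries. On the CPM scale this was 78.5 and 85.3 in AD and 10.1 and 9.88 in AD/KO. Both AD/KO libraries were far below both AD libraries, and the replicates within each group were close. The mean was 81.9 ± 4.80 CPM in AD (SD, n = 2) and 9.995 ± 0.168 in AD/KO (SD, n = 2), a ratio of 8.19 and a log2 fold change of −3.03 (SE 0.28). Leaving out each library in turn gave log2 fold changes from −3.10 to −2.91.

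The level of Clec7a did not track the homeostatic markers. AD/KO replicate 1 had as high a homeostatic level as AD replicate 1 but held the same low Clec7a level as AD/KO replicate 2. Per 10000 counts of the 14 homeostatic genes, Clec7a had 36.8 and 59.2 counts in AD and 4.74 and 16 in AD/KO. The groups remained apart on this scale, although the AD/KO replicates then differed from each other. Whether the 14 genes hold the same level per cell in both groups was not tested. This scale is therefore not a level per microglial cell. When libraries were scaled to the homeostatic markers, the log2 fold change was −2.13 (SE 1.25), while the median over all genes moved from −0.05 to 0.83. Clec7a made up 36.9% of the counts of the 9 lectin genes in AD replicate 1 (Wilson 95% interval 35.2 to 38.7) and 35.5% in AD replicate 2 (34 to 37). In AD/KO it made up 8.98% in replicate 1 (7.85 to 10.3) and 18.8% in replicate 2 (16.5 to 21.4). These intervals cover counting error only, since the reads carry no molecular identifiers.

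Markers of other CD11b+ cells were also measured. Of 12 monocyte markers, 9 had both AD/KO values below both AD values (21.7% of all genes) and 1, Nr4a1, had both above, and the summed level was 272 and 770 CPM in AD and 156 and 240 CPM in AD/KO. Ccr2, the chemokine receptor of inflammatory monocytes, was at 39.8 and 40.0 CPM in AD and 10.3 and 6.13 CPM in AD/KO. Of 11 markers of border-associated macrophages, 7 were lower in both AD/KO libraries (21.7% of all genes) and 4, Stab1 among them, overlapped. Their summed level, most of it Stab1, overlapped between the groups, with 839 and 547 CPM in AD and 820 and 319 CPM in AD/KO. F13a1, the transglutaminase of clotting, was at 39.5 and 39.3 CPM in AD and 14.9 and 14.7 CPM in AD/KO. None of the markers of these lists was at 0 in every library. The part of these cells in the Clec7a difference was not tested.

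**Figure D1:**
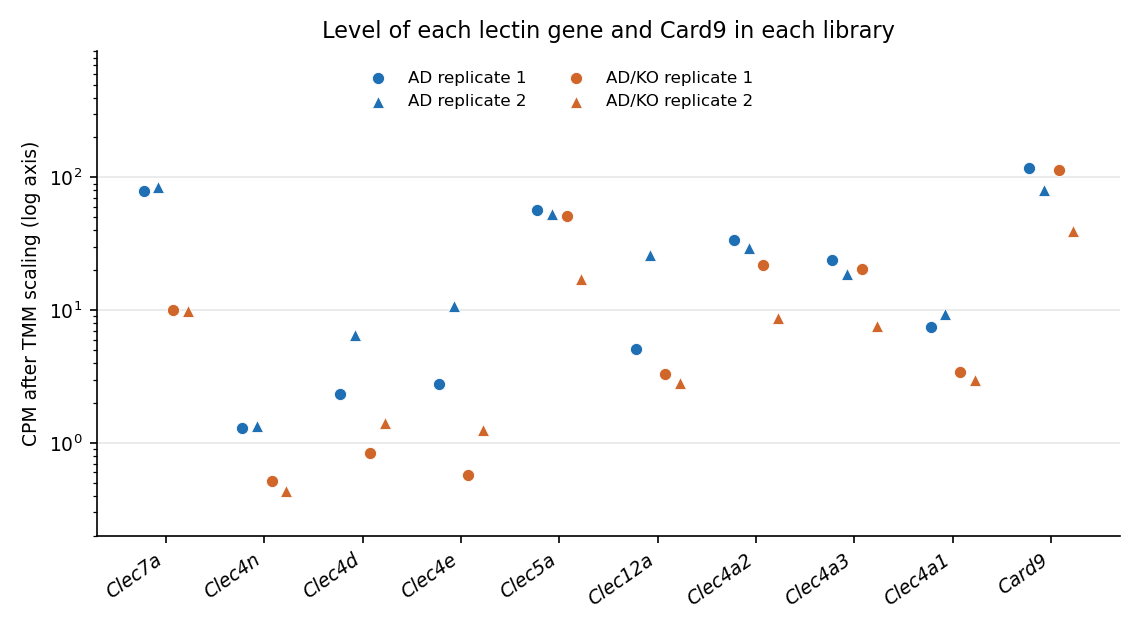
CPM after TMM scaling (log axis) of the 9 lectin genes and Card9 in each of the 4 libraries, AD in blue and AD/KO in orange, replicate 1 as circles and replicate 2 as triangles. For Clec7a the AD points at 78.5 and 85.3 stand clear of the AD/KO points at 10.1 and 9.88, whereas Clec4d, Clec4e and Clec12a are highest in AD replicate 2 and Clec5a, Clec4a3 and Card9 are lowest in AD/KO replicate 2.

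Promoters are shown for Clec7a, the member with the largest difference in the fit on all 4 libraries, and for Clec4e and Clec12a, whose high level in AD replicate 2 is described further on. Each sequence is the 250 bases before a RefSeq transcription start on GRCm38.p6, read 5′ to 3′ on the strand of the gene. The Clec12a window lies inside the span of the gene, which begins at 129349783, and so precedes a later start. The capitals mark the letters GAGGAA, or TTCCTC where they lie on the other strand, the core that PU.1, a transcription factor of the myeloid lineage, binds.
Clec7a, chr6:129472786-129473035, minus strand: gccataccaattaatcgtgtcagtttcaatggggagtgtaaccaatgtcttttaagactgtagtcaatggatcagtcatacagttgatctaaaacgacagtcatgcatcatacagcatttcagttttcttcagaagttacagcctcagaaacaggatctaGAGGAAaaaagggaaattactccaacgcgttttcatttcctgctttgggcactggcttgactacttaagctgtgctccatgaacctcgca
Clec4e, chr6:123289872-123290121, minus strand: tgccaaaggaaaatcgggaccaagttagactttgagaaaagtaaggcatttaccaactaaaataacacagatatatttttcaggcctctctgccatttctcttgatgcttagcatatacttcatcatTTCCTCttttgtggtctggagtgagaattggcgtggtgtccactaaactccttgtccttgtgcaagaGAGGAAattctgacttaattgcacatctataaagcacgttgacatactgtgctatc
Clec12a, chr6:129349994-129350243, plus strand: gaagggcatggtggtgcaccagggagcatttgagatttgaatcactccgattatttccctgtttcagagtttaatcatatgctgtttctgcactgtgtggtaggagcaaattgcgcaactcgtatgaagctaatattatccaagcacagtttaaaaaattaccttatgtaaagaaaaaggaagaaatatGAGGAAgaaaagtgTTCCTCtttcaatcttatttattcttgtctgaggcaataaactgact

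The Clec7a window held this core once, beginning 90 bases before the start. The Clec4e window held it 2 times and the Clec12a window 2 times. Of the 10 members, 9 had a promoter in the RefSeq table, and 8 of their 11 windows held the core on either strand (1 pair of windows, for 2 starts of Clec7a, overlaps almost wholly). Over all 32851 promoter windows of the same length the share was 23.3%. The C/EBP core TTGCNNAA was in the windows of Clec4e and Clec12a and in 9.56% of all windows, and the AP-1 core TGANTCA was in that of Clec12a and in 6.75% of all. No member window held the kappa-B-like letters GGNNTTTCC (4.93% of all windows), the E-box CACGTG (6.02%) or the interferon-type letters GAAANNGAA (7.13%). Motifs were searched on both strands and may overlap. A match describes letters and not binding.

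Dectin-2, MCL and Mincle are the receptors coupled to the Fc receptor gamma chain. Clec4n (chromosome 6, 123229843 to 123247024, plus strand) had 18 and 22 counts in AD and 10 and 8 in AD/KO. The exact Poisson 95% intervals were 10.7 to 28.4 and 13.8 to 33.3 counts in AD and 4.80 to 18.4 and 3.45 to 15.8 in AD/KO. Its level was 1.31 and 1.35 CPM in AD and 0.521 and 0.434 CPM in AD/KO, lower in both AD/KO libraries (log2 fold change −1.46, SE 0.63). Clec4n was the member that passed the filter on low counts through the AD libraries alone, so that a difference in this direction was built into its being tested.

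Clec4e (chromosome 6, 123281789 to 123289871, minus strand) had 38 and 175 counts in AD and 11 and 23 in AD/KO. The level was 2.76 and 10.8 CPM in AD and 0.573 and 1.25 CPM in AD/KO. AD replicate 2 stood well above the rest, and the groups did not overlap. Clec4d (chromosome 6, 123262107 to 123275268, plus strand) had 32 and 105 counts in AD and 16 and 26 in AD/KO, or 2.32, 6.45, 0.834 and 1.41 CPM in the same order. Its pattern over the libraries was that of Clec4e on a smaller scale. The log2 fold changes were −2.89 (SE 0.90) for Clec4e and −1.96 (SE 0.75) for Clec4d, and without AD replicate 2 they were −1.53 (SE 1.22) and −0.99 (SE 1.23).

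Clec12a, an inhibitory receptor of granulocytes, monocytes and dendritic cells that senses uric acid crystals, showed the widest gap between the AD libraries. It lies on chromosome 6, 129349783 to 129365303, plus strand, and had 70 and 424 counts in AD and 63 and 52 in AD/KO. The level was 5.08 and 26.1 CPM in AD and 3.28 and 2.82 CPM in AD/KO. The 3 libraries other than AD replicate 2 thus lay within a narrow range. The log2 fold change was −2.35 (SE 0.85) and, without AD replicate 2, −0.67 (SE 1.04).

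The gap between the AD replicates does not use the contrast by which the genes were chosen. AD replicate 2 exceeded AD replicate 1 by a factor of 5.13 for Clec12a, 3.90 for Clec4e and 2.78 for Clec4d. For the other 7 members the factor was between 0.681 (Card9) and 1.24 (Clec4a1), with Clec7a at 1.09. The factor ranged from 0.566 to 1.27 over the 14 homeostatic genes. Over the 16 neutrophil markers its median was 11, and the lowest, 0.632, was that of Csf3r, which was at 256 to 996 CPM. S100a8, a calcium-binding protein abundant in neutrophils, was at 51.4 and 800 CPM in AD and 59.6 and 64.5 CPM in AD/KO, and Cxcr2, a chemokine receptor of neutrophils, at 12.9 and 46.8 CPM in AD and 5.63 and 9.39 CPM in AD/KO. Both were highest in AD replicate 2. Of the 12 monocyte markers, 10 were highest in AD replicate 2 as well. Their summed level was 272 CPM in AD replicate 1 and 770 CPM in AD replicate 2. The part of neutrophils or monocytes in the levels of these 3 lectins was not tested.

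**Figure D2:**
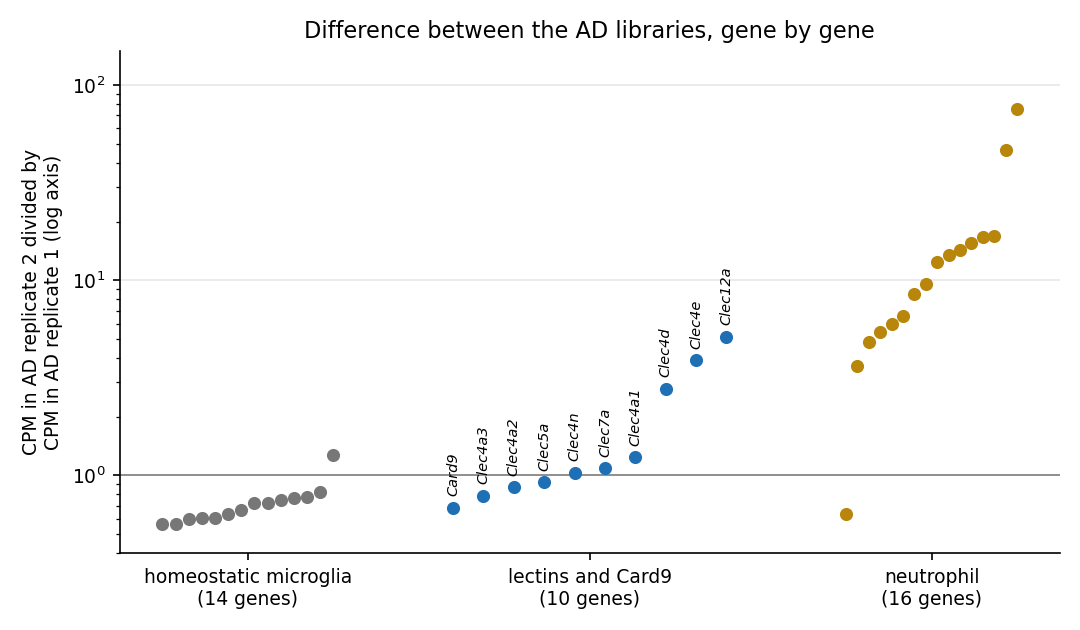
CPM in AD replicate 2 divided by CPM in AD replicate 1 (log axis), 1 point per gene, for the 14 homeostatic microglia genes, the 10 members (named) and the 16 neutrophil markers. Clec4d, Clec4e and Clec12a, at 2.78 to 5.13, lie above the homeostatic range of 0.566 to 1.27 and the other members lie within it.

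Clec5a encodes the DAP12-coupled receptor MDL-1, which takes part in inflammatory responses of myeloid cells. It lies apart from the other lectins on chromosome 6, at 40574898 to 40585805 on the minus strand. It had 790 and 859 counts in AD and 986 and 318 in AD/KO, or 57.3 and 52.8 CPM in AD and 51.4 and 17.3 CPM in AD/KO. AD/KO replicate 1 was just below the AD libraries and AD/KO replicate 2 far below them. The log2 fold change was −0.68 (SE 0.56), and without AD/KO replicate 2 it was −0.09 (SE 0.39).

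The DCIR group split between these patterns. Clec4a2, with an inhibitory motif (chromosome 6, 123122690 to 123143999, plus strand), had 466 and 479 counts in AD and 420 and 162 in AD/KO, or 33.8, 29.4, 21.9 and 8.79 CPM. Both AD/KO libraries were below both AD libraries (log2 fold change −1.04, SE 0.51), and without AD/KO replicate 2 the value was −0.52. Its transcript matches that of Clec4b1 at 96.3% identity over 436 bases, and Clec4b1 had 3 to 7 counts per library, so that the split of reads between the 2 genes is uncertain. Clec4a3 (chromosome 6, 122952515 to 122969878, plus strand) had 330, 307, 394 and 140 counts, or 24.0, 18.9, 20.5 and 7.6 CPM, and its groups overlapped (log2 fold change −0.61, SE 0.55, and −0.05 without AD/KO replicate 2). Clec4a1 (chromosome 6, 122921848 to 122934619, plus strand) had 103 and 151 counts in AD and 66 and 55 in AD/KO. At 7.48 and 9.28 CPM in AD and 3.44 and 2.98 CPM in AD/KO the AD/KO values were the lower ones (log2 fold change −1.38, SE 0.44), with a range of −1.54 to −1.15 when 1 library was left out. Between these 3 transcripts the longest alignments had 73.7% to 79.3% identity.

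Card9 (gene ID 332579, chromosome 2, 26352187 to 26360945, minus strand) had the most counts among the members in AD replicate 1 and in both AD/KO libraries. It had 1627 and 1308 counts in AD and 2169 and 732 in AD/KO, or 118, 80.4, 113 and 39.7 CPM. The groups overlapped and the log2 fold change was −0.38 (SE 0.57). Its direction turned to 0.13 with scaling to the homeostatic genes and to 0.20 without AD/KO replicate 2. Per 10000 homeostatic counts Card9 had 55.4 and 55.8 counts in AD and 53.0 and 64.2 in AD/KO, the smallest ratio of highest to lowest among the 10 members. An antisense non-coding gene, Gm13562, shares 87 exon bases with Card9, or 3.79% of its exon length, and had 60 to 150 counts per library.

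**Figure D3:**
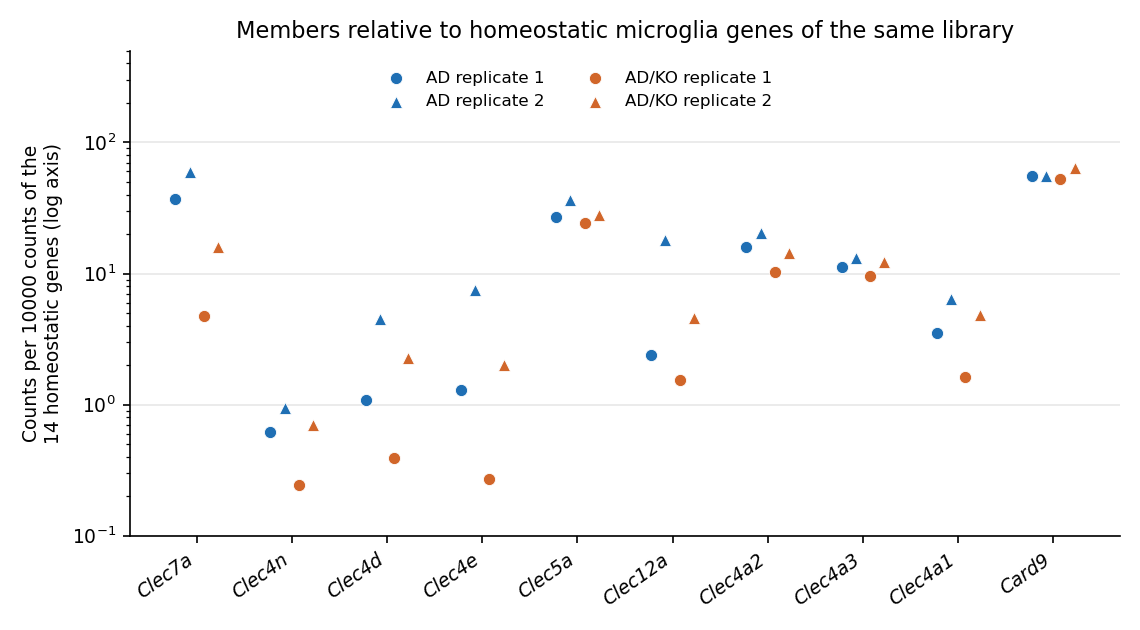
Counts of each member per 10000 counts of the 14 homeostatic microglia genes of the same library (log axis), symbols as in the plot of CPM by library. Card9 lies between 53.0 and 64.2 in all 4 libraries, and Clec7a runs from 59.2 in AD replicate 2 to 4.74 in AD/KO replicate 1.

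All 10 members had a log2 fold change below 0, with a median of −1.42, where 52.8% of the 21439 genes tested did and their median was −0.05; with scaling to the homeostatic genes Card9 was above 0. In 8 members both AD/KO libraries were below both AD libraries, which held for 21.7% of all genes, and Clec4a3 and Card9 overlapped. Per homeostatic count, 2 members (Clec7a and Clec4a2) had both AD/KO libraries below both AD libraries, against 7.57% of all genes. With the quasi-likelihood test of edgeR and Benjamini-Hochberg adjustment, 0 members had an adjusted p under 0.05 (0% of all genes), and 5 had an unadjusted p under 0.05 (5% of all genes). DESeq2 called 1 member, Clec7a, and 0.462% of the genes to which it gave an adjusted p. Since the members were chosen with this contrast known, these counts describe them and nothing is read from the comparison with all genes.

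**Figure D4:**
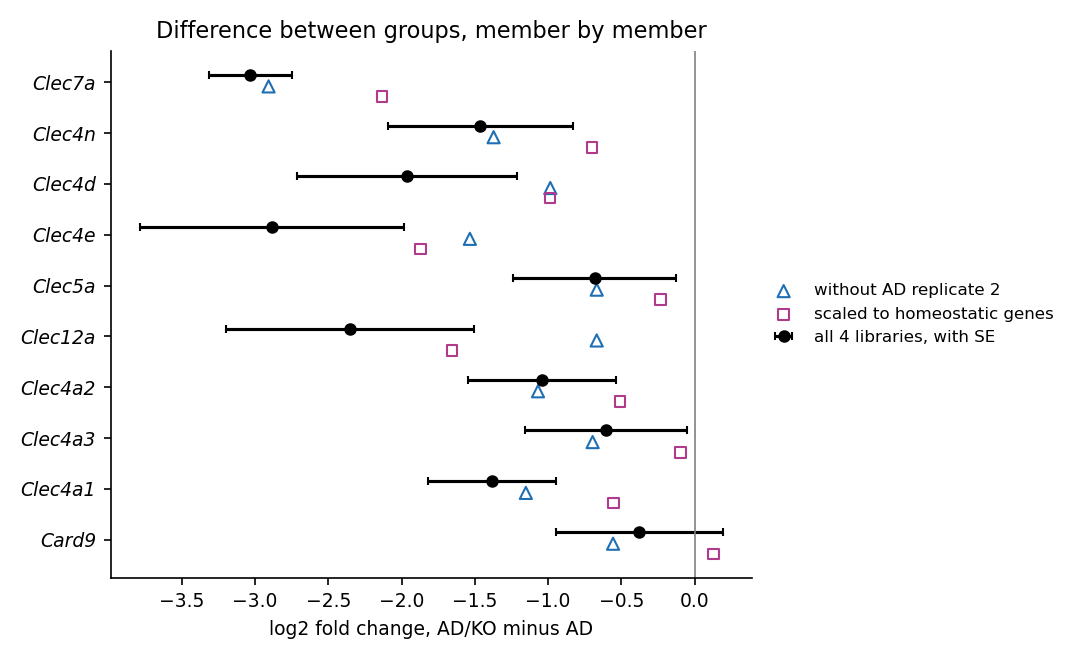
Log2 fold change, AD/KO minus AD, of each member: filled circles with bars of 1 SE for the fit on all 4 libraries, triangles without AD replicate 2, squares with libraries scaled to the homeostatic microglia genes. Leaving out AD replicate 2 moved Clec12a from −2.35 to −0.67 and Clec4e from −2.89 to −1.53, and Clec7a from −3.03 to −2.91.

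Levels can be ordered between genes only per length, here as CPM per kilobase of the longest GENCODE M21 transcript. In AD, Card9 led with 51.0 ± 13.7 CPM per kilobase (SD, n = 2), followed by Clec7a with 35.9 ± 2.11. Clec4a3 (16.5 ± 2.76), Clec5a (14.7 ± 0.857) and Clec4a2 (12.7 ± 1.25) came next, and of these Clec4a3 and Clec5a overlapped. From Clec4a1 (5.38 ± 0.819) through Clec12a (4.82 ± 4.59), Clec4d (3.32 ± 2.21) and Clec4e (1.41 ± 1.18) to Clec4n (0.947 ± 0.0231), each gene overlapped with the next. In AD/KO, Card9 stayed first with 39.2 ± 26.6 CPM per kilobase (SD, n = 2). Clec7a, with 4.39 ± 0.0737, had rank 5 there, behind Clec4a3 (10.8 ± 7.04), Clec5a (9.16 ± 6.44) and Clec4a2 (6.18 ± 3.73). Both AD/KO values of Clec4a3 and of Clec5a lay above those of Clec7a, and those of Clec4a2 lay on either side.

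Of the members, 6 lie within 368 kb of chromosome 6 (Clec4a1 to Clec4e, 122921848 to 123289871), and Clec12a and Clec7a lie within 123 kb of each other (129349783 to 129472785). Of the 4 nearest protein-coding genes on each side of Clec7a, 5 had enough counts to be tested. Clec1a, the next gene toward Clec12a, encodes a lectin receptor that binds fungal melanin and had 64 and 82 counts in AD and 15 and 12 in AD/KO (log2 fold change −2.74, SE 0.55). Clec9a, a receptor for dead cells on dendritic cells, had 28, 34, 12 and 10 counts (−1.81, SE 0.60), and Clec1b, a platelet receptor, 11, 12, 8 and 4 (−1.25, SE 0.74). On the other side Olr1, a receptor for oxidised lipoprotein, had 39, 143, 34 and 19 counts (−2.05, SE 0.77), with its highest level in AD replicate 2. Gabarapl1, an autophagy gene that is no lectin, was at 32.9 and 50.2 CPM in AD and 56.0 and 111 CPM in AD/KO (1.01, SE 0.45). The 4 tested lectin-type neighbours were lower in both AD/KO libraries (21.7% of all genes) and Gabarapl1 was higher in both (20.3% of all genes). Clec1b passed the filter on low counts through AD alone, and Clec9a reached the cutoff in 1 AD/KO library, so that part of their direction was built into their being tested. Clec12b, a lectin neighbour with too few counts to be tested (3, 7, 2 and 6), overlapped between the groups on the CPM scale. The non-coding gene Gm45969 spans Clec7a, reaches into the span of Olr1 and had 43 and 67 counts in AD and 9 and 13 in AD/KO. A search of GENCODE M21 exons found none of another gene that overlap those of Clec7a. Whether the counting used strand, and with which annotation, is not stated, so that reads of these overlapping genes may not be separable.

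**Figure D5:**
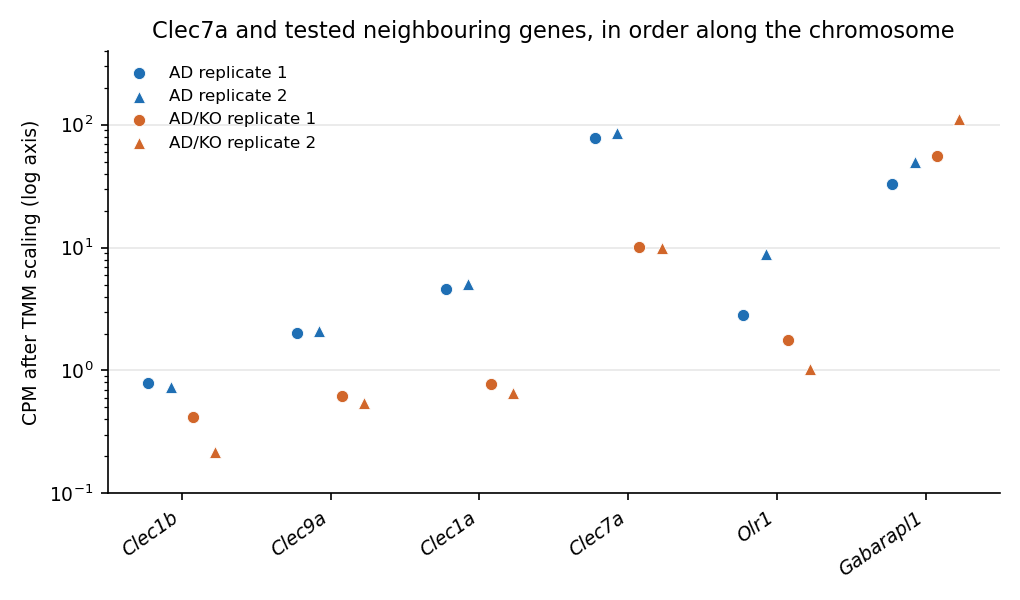
CPM after TMM scaling (log axis) in each library for Clec7a and the tested protein-coding genes among its 4 nearest on each side, in chromosome order and not to scale, symbols as in the plot of CPM by library. The tested lectin-type genes Clec1b, Clec9a, Clec1a and Olr1 are lower in both AD/KO libraries, and Gabarapl1 is higher, from 32.9 and 50.2 to 56.0 and 111 CPM.

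In the wider cluster of lectin and natural killer receptor genes on chromosome 6, 12 of 25 listed genes were tested, 4 of them through the AD libraries alone. Of these 12, 11 had a log2 fold change below 0 (52.8% of all genes) and 10 were lower in both AD/KO libraries (21.7% of all genes), with a median of −1.77. Without those 4 (Clec1b, Clec2g, Klrb1b and Klrk1), 7 of 8 were below 0, 6 were lower in both and the median was −1.59. Of these 8, Clec9a, Clec4a4 and Klrd1 reached the cutoff in only 1 AD/KO library each. Part of their direction was thus also built in. Of the 13 genes not tested, with at most 19 counts in a library, 5 were lower in both. No share over all untested genes was computed. By edgeR's quasi-likelihood test 7 of the 12 and 5 of the 8 had an unadjusted p under 0.05 (5% of all genes). After adjustment 0 of the 12 passed, and DESeq2 called 0. With scaling to the homeostatic genes the median of the 12 was −1.05. Beside Clec1a, Clec9a and Olr1, the 7 were Clec2g (15, 16, 4 and 4 counts), Clec2i (80, 59, 37 and 28), Klrk1 (14, 10, 3 and 1) and Clec2d. Clec2d, a ligand of a natural killer receptor that also binds histones, was at 35.9 and 39.9 CPM in AD and 23.1 and 15.2 CPM in AD/KO.

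Among 39 other C-type lectin and lectin-like receptors, 25 were tested. Of these, 18 had a log2 fold change below 0 (52.8% of all genes) and 7 above, with a median of −0.44. In both AD/KO libraries 8 were lower (21.7% of all genes) and 4 higher (20.3%). Those with the highest CPM, which is not per length, were Clec16a (177 ± 22.9 CPM in AD and 157 ± 10.3 in AD/KO, SD, n = 2 each), Mrc2 (105 ± 34.2 and 89.1 ± 60.8) and Mrc1, the mannose receptor (56.1 ± 18.4 and 36.4 ± 5.96). Clec16a stands in this list by gene name, and whether it is a lectin receptor was not checked here. The median of the list turned to 0.28 with scaling to the homeostatic genes. By edgeR, 3 had an unadjusted p under 0.05 (5% of all genes) and 0 an adjusted one, and DESeq2 called 0. The 3 were Cd209a, a relative of DC-SIGN, at 4.65 and 4.43 CPM in AD and 1.62 and 1.03 in AD/KO, Colec12, a scavenger receptor with a lectin domain, at 2.98 and 5.22 CPM in AD and 12 and 10.4 in AD/KO, and Susd2, a sushi-domain protein placed in this list, at 0.944, 3.32, 6.20 and 13.4 CPM. Cd209a was thus lower and Colec12 and Susd2 higher in both AD/KO libraries.

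Behind the receptors stand the shared signalling genes. All 39 genes of the Syk and Card9 pathway list were tested. Of these, 33 had a log2 fold change below 0 (52.8% of all genes) with a median of −0.46. In both AD/KO libraries 9 were lower, a share near the 21.7% of all genes, and 4 were higher (20.3% of all genes). The median turned to 0.20 with scaling to the homeostatic genes. By edgeR's quasi-likelihood test 0 passed after Benjamini-Hochberg adjustment and 1 of the 39 had an unadjusted p under 0.05 (5% of all genes). DESeq2 called 0. The difference between this list and the members was not tested.

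Syk, the kinase, was at 320 and 212 CPM in AD and 250 and 90.1 CPM in AD/KO, and Fcer1g, the partner chain of Mincle and MCL, at 124 and 133 CPM in AD and 140 and 46.1 CPM in AD/KO. In both genes AD/KO replicate 2 alone was low. Tyrobp, the partner of Clec5a, was at 226, 263, 196 and 76.5 CPM, lower in both AD/KO libraries (log2 fold change −0.84, SE 0.53). The other partners of Card9 were at 25, 20.7, 25.2 and 13.6 CPM for Bcl10 and 53.7, 43.5, 40.6 and 21.4 CPM for Malt1. Plcg2, Prkcd and the phosphatase gene Ptpn6 had log2 fold changes of −0.75 (SE 0.68), −0.47 (SE 0.56) and −0.62 (SE 0.61), with overlapping groups. The gene with an unadjusted p under 0.05 was Fgr, a Src-family kinase of granulocytes and monocytes, at 34.2 and 60.7 CPM in AD and 13.5 and 9.33 CPM in AD/KO (−2.05, SE 0.43).

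Of 20 cytokine and early response genes that Syk and Card9 signalling can induce, 11 were tested and 8 of them had a log2 fold change below 0 (52.8% of all genes), with a median of −1.16. The median was −0.45 with scaling to the homeostatic genes. DESeq2 called 2, Ccl3 and Ccl4, against 0.462% of the genes to which it gave an adjusted p. By edgeR 7 had an unadjusted p under 0.05 (5% of all genes) and 0 an adjusted one. Among the 7, Tnf was at 7.98 and 9.90 CPM in AD and 2.29 and 0.977 in AD/KO, Il1b at 17.9 and 22.4 and at 6.78 and 8.30, Ccl3 at 18.1 and 22.1 and at 5.11 and 1.36, and Ccl4 at 13.9 and 13.8 and at 3.49 and 1.19. Egr2 was at 6.68 and 8.11 CPM in AD and 2.19 and 0.488 in AD/KO, and Nfkbiz at 78.4 and 66.5 and at 40.6 and 24.0. Egr3 had the opposite sign, with 4.65 and 9.16 CPM in AD and 15 and 39.1 CPM in AD/KO. Nfkbia, the NF-kB inhibitor, differed little, at 34.1 ± 2.07 CPM in AD and 33.1 ± 12 CPM in AD/KO (SD, n = 2 each), and Egr1 was at 17.9 ± 0.357 and 26.6 ± 8.73 CPM. Il10, Cxcl1 and Csf2 had no count in any library.

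Of 6 genes for proposed endogenous ligands of these receptors, 5 were tested. By edgeR 0 had an unadjusted p under 0.05 (5% of all genes), and 0 had an adjusted one by edgeR or DESeq2. Lgals9, for galectin-9, which binds Dectin-1, was at 103, 73.9, 93.0 and 29.1 CPM. Anxa1, for an annexin exposed on dying cells, was at 17.4 and 160 CPM in AD and 13 and 20.0 CPM in AD/KO, high in AD replicate 2 as Clec4e was. Sap130, for a nuclear protein that binds Mincle, was at 73.6, 72.8, 79.8 and 78.7 CPM, nearly constant.

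The genes most like Clec7a over the 4 libraries were taken from 12191 protein-coding genes with a mean of at least 5 CPM, by the root mean square difference of log2(CPM + 1) about each gene's own mean. They were Igf1 (0.194), Knl1 (0.207), Lpl (0.216), Tnfsf8 (0.269) and Cenpf (0.319). Igf1, a growth factor, was at 18.1 and 21.5 CPM in AD and 2.61 and 2.55 CPM in AD/KO, and Lpl, the lipoprotein lipase, at 83.8, 80.8, 12.5 and 7.81 CPM. Knl1 and Cenpf, a pair of genes of the kinetochore, had 138, 265, 22 and 17 counts and 416, 755, 137 and 86 counts, and Tnfsf8, for CD30 ligand, had 254, 250, 49 and 28. Those most like Clec4e were Cxcr2 (0.114), Kif11 (0.127), Cd44 (0.153), Mgam (0.153) and Slfn4 (0.157). Each was highest in AD replicate 2, as in Mgam with 87, 414, 55 and 88 counts and Cd44 with 35.9, 86.8, 12.9 and 20.4 CPM. Clec4e was at 0.573 and 1.25 CPM in AD/KO, so that the added 1 shrinks its differences on this scale. The log2 fold changes of its 5 matches ran from −2.36 (Kif11) to −1.88 (Cd44), against −2.89 for Clec4e. Likeness over 4 libraries is a description of these libraries.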

How the data were processed

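Per the labels' protocols, TRIzol was used for extraction, followed by depletion of ribosomal RNA and a stranded library kit. Per the submitters' processing notes, FastQC, HISAT2, SAMtools, featureCounts from Subread, DESeq2 1.30.0 and the genome build mm10 were used. Settings, strand use, the treatment of reads that match several places and the annotation are not given in the sources used here.

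The authors deposited 1 table for each of the 4 libraries, with raw read counts by gene symbol (49993 genes, not normalized). In each, 11 broken lines held no count and were left out. No column was without a sample (0).

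Counts were analysed with edgeR 4.0.16 in R 4.3.3: filterByExpr (minimum count 10, minimum total 15), TMM scaling and the quasi-likelihood F-test without covariates on all 21439 genes that passed, with Benjamini-Hochberg adjustment at 0.05. All 10 members passed, Clec4n through AD alone. The SE is the log2 fold change divided by the square root of F. The procedure was tested on simulated data. Values are CPM after TMM scaling, mean ± SD of 2 libraries.

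Named genes were the members, 8 pathway genes, the 3 tested genes with the highest mean CPM and any with an unadjusted p under 0.05 of each other list, and the 5 genes most like Clec7a and Clec4e. Marker genes, overlapping genes and neighbours of Clec7a outside these lists were named after their values were seen. Members and lists were chosen with earlier results of these data known. Coordinates and promoters are from RefSeq for GRCm38.p6 (the sequence of mm10), transcript lengths and exon overlaps from GENCODE M21. Near-identical transcripts were searched with BLAST 2.17.0 (at least 95% identity over 100 bases). No protein sequences were used here. The alternatives were DESeq2 1.42.0, other scalings, other filters, the replicate number as a block, and leaving out each library.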

Additional observations from a re-analysis of the deposited data

How the results depend on the processing

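Across the alternatives 142 values were computed, and 124 of them were counted as the same. For a member this means that neither direction nor call differed. For a list median, the sign was kept and the move was within the spread between replicates. The number of genes called counted as the same where it stayed at 0. No gene passed in the edgeR fit (0, with 1072 at an unadjusted p under 0.05), with DESeq2 size factors, library size alone, scaling to the homeostatic genes, no filter, or a filter at 1 CPM. DESeq2's own test called 91 genes, Clec7a among them (log2 fold change −2.99). Leaving out 1 library gave 0 to 524 genes, 48 without AD replicate 1 and 524 without AD replicate 2, and the lone sample is then assumed to vary like the other group. The cause was not tested.

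With the replicate number as a block, 4333 genes were called, in a fit that left very few degrees of freedom to estimate the spread. Among the members these were Clec7a (−3.03), Clec4e (−2.74), Clec4d (−1.86), Clec4a1 (−1.38) and Clec4a2 (−1.17). No label ties equal numbers to 1 litter or day. Across genes, deviations from the group mean correlated at 0.68 between libraries of equal number. With 2 libraries per group, the deviations of replicate 2 mirror those of replicate 1. Exchanging the numbers within 1 group would turn the sign, so that this value cannot show whether the libraries are paired. The pathway list median was −0.52 with the block and that of the other lectins −1.01. Here the other lectins are the chromosome 6 cluster list and the list of other receptors together, 37 genes tested, Gabarapl1 included.

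Scaling to the homeostatic genes moved Card9 to 0.13, the pathway list median to 0.20 and that of the other lectins from −0.97 to −0.18, with the median of all genes at 0.83. Library size alone put the median of all genes at −0.15, and every member was then below 0.

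With 1 library left out, Clec7a ran from −3.10 to −2.91, Card9 from −1.27 to 0.20, Clec12a from −3.10 to −0.67, Clec4e from −3.57 to −1.53, Clec4d from −2.53 to −0.99, Clec4a2 from −1.79 to −0.52, Clec4a3 from −1.44 to −0.05 and Clec5a from −1.62 to −0.09. The pathway list median ran from −0.95 (without AD/KO replicate 1) to −0.081 (without AD/KO replicate 2), and that of the other lectins from −1.13 to −0.42 (the latter without AD replicate 1). Clec4n had no value under the filter at 1 CPM, which it did not pass, and its 8 to 22 counts limit its precision.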
